A study of Mus musculus with 24 samples.

Results

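The genes described here encode neurotrophic and growth factors: Bdnf, Ntf3, Vgf, Inhba, Vegfa, Csf1, Tgfb1, Fgf2 and Hbegf. They were followed through every probe set, a group of short probes summarised as 1 value, whose only platform gene symbol was exactly one of these names. The rule found 16 probe sets of 8 genes among the 45037 probe sets of the array that are not controls, and no probe set used here carried the symbol Ntf3. Csf1 had 4 probe sets, Bdnf, Inhba, Vegfa, Tgfb1 and Hbegf had 2 each, and Vgf and Fgf2 had 1 each. Of the 16, 14 passed a filter on dim values and were tested, the filter asking for at least 3 arrays above the 40th percentile of their own array. Inhba 1458291_at was below 0 on all 24 arrays and Tgfb1 1420653_at lay between -10.3 and 33.1, and both failed it.

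The cells were embryonic cortical neurons of Il1rap-/- mice, in all 8 groups, so none had its own AcP, which pairs with the IL-1 receptor as accessory chain. They expressed AcP, AcP together with AcPb, AcPb alone, or CD25, a chain of the IL-2 receptor that takes no part in IL-1 signalling. AcPb is a form of the same accessory chain found in the nervous system. In each of the 4 arms, 3 arrays came from neurons given IL-1b at 10 ng/ml and 3 from neurons given a control stimulus, with RNA taken at 4 h. The cells were grown in serum-free neuronal medium, and the sources used here do not say how the receptors were introduced.

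The median intensity of an array was between 55.1 and 66.5, and arrays of the same group correlated with each other at 0.963 to 0.985. All 10 neuron markers were present, with summed intensities of 43504 to 51772 on single arrays, but the cultures also held signal of all 8 astrocyte markers. In these bulk RNA samples, fewer cells of a type and less RNA per cell cannot be told apart. The brightest Il1rap probe set had group means of 110.8 to 135.8 and the brightest Il2ra probe set, for CD25, 19.2 to 37.7. The files do not say whether these probes lie in the deleted or the introduced sequence, so the levels check no label. An array code in the labels, whose meaning is not stated, was m21B for all AcP, AcPb and CD25 arrays, m22B for AcP+AcPb controls 1 and 2, and m23B for AcP+AcPb control 3 and the AcP+AcPb IL-1b arrays. Code and arm cannot be told apart where AcP+AcPb neurons are set against another arm. Within AcP+AcPb neurons, code and stimulus are in part confounded.

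IL-1b binds its receptor, the accessory chain joins the complex, and adaptor proteins then activate NF-kappa-B and MAP kinases. Growth factors are among the proteins that such signals can induce. Bdnf and Ntf3 act on Trk receptors of neurons, Csf1 (macrophage colony-stimulating factor) maintains microglia through its receptor Csf1r, and Vgf is a precursor of secreted neuropeptides. Inhba, Tgfb1, Vegfa, Fgf2 and Hbegf act on blood vessels, glia or neurons through receptors of the activin, TGF-beta, VEGF, FGF and EGF families.

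The 250 bases before the annotated start of Csf1, the member with called IL-1b responses, are printed because they hold a match to an NF-kappa-B motif. The sequence is from RefSeq, build GRCm38.p6, at chr3:107760470-107760719 on the minus strand, and is written in the direction of the gene, with the match in capitals.
Csf1: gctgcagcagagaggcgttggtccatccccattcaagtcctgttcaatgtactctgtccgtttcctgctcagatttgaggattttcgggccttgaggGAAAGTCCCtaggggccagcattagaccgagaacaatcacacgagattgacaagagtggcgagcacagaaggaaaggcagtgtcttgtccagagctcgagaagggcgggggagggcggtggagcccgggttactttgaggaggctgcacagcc
The capitals are the reverse strand form of GGGANTTTC, one of 2 NF-kappa-B patterns searched on both strands, and lie 153 bases before the start. This pattern occurred in 309 of 32851 promoter windows of the same length, or 0.941%. The other pattern, GGGANTTCC, occurred in 1.43%, TGACGTCA (the CRE) in 1.55%, TGANTCA (AP-1) in 6.75% and GCGGGGGCG (Egr) in 2.57%. Among the other members with a window, 1 of 7 Bdnf windows held the AP-1 pattern, at 152 bases before its start, and the Fgf2 window held the Egr pattern, at 47 bases before its start. The windows of Tgfb1 and Inhba and both windows of Vegfa held none of the 5 patterns. A match is a string of letters and does not show a bound site, and no match says only that these letters are not in this window.

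Csf1 was the only member called higher with IL-1b, in the arms that carried AcP, but not on all of its probe sets. Its brightest, 1425154_a_at, was not called, with log2 changes of -0.22 in AcP and 0.16 in AcP+AcPb neurons. Calls in AcP+AcPb neurons were lost when some single arrays were left out, as given below. On probe set 1448914_a_at the intensities were 185.7, 198.3 and 194.7 in AcP neurons with IL-1b, against 47.4, 4.57 and 40.7 in AcP controls. All 3 stimulated arrays lay above all 3 controls, where 10.1% of all probe sets tested had no overlap in that arm in either direction, and control 2 was far below the other two. The log2 change was 2.32 ± 0.29 (SE, 95% confidence interval 1.71 to 2.92, adjusted p = 0.000172), and the ratio of the mean intensities was 6.25. Changes are on the scale of log2(intensity + 16), which understates those of dim probe sets. They come from 1 limma fit over all 30468 probe sets tested, and a change is called where its Benjamini-Hochberg adjusted p is under 0.05.

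In neurons with both AcP and AcPb the same probe set read 151.8, 195.7 and 216.6 with IL-1b, against 57.3, 45.1 and 59.8 in controls. The groups again did not overlap, as for 16.9% of all probe sets tested in that arm, with a log2 change of 1.53 ± 0.29 (SE, adjusted p = 0.0218) and a ratio of means of 3.48. In AcPb neurons it read 58.1, 28.3 and 43.2 with IL-1b, against 58.8, 46.2 and 41.9 in controls, and the groups overlapped (log2 change -0.16, adjusted p = 0.911). In CD25 neurons it read 113.1, 105.3 and 122.0 with IL-1b, against 150.7, 126.9 and 140.7 in controls. Every stimulated CD25 array was below every CD25 control, where 14.0% of all probe sets tested had no overlap, but the change of -0.26 was not called (adjusted p = 0.9).

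Csf1 probe set 1460220_a_at showed the same order. The platform gives it the same source sequence as 1448914_a_at, so the 2 are not independent readings of the gene. It read 486.2, 488.3 and 482.4 in AcP neurons with IL-1b, against 195.2, 244.6 and 177.4 in AcP controls, a log2 change of 1.19 ± 0.15 (SE, adjusted p = 0.000173). In AcP+AcPb neurons it read 410.6, 419.8 and 587.6 with IL-1b, against 239.6, 263.3 and 223.3 in controls, a change of 0.91 ± 0.15 (SE, adjusted p = 0.00684). Neither pair of groups overlapped, and the ratios of means were 2.36 in AcP and 1.95 in AcP+AcPb neurons. AcPb neurons read 235.6, 184.2 and 261.7 with IL-1b, against 276.3, 203.5 and 219.6 in controls. CD25 neurons read 326.5, 331.2 and 330.2 with IL-1b, against 331.8, 297.7 and 381.5 in controls. The arrays overlapped in both arms, and the log2 changes were -0.04 and -0.03. On both probe sets AcP neurons with IL-1b had the highest mean of the 8 groups and AcP controls the lowest. In that order the 2 highest groups, AcP and AcP+AcPb neurons with IL-1b, overlapped each other and stood apart from the CD25 groups, which stood apart from the 4 lowest groups, and those 4 overlapped their neighbours.

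**Figure D1:**
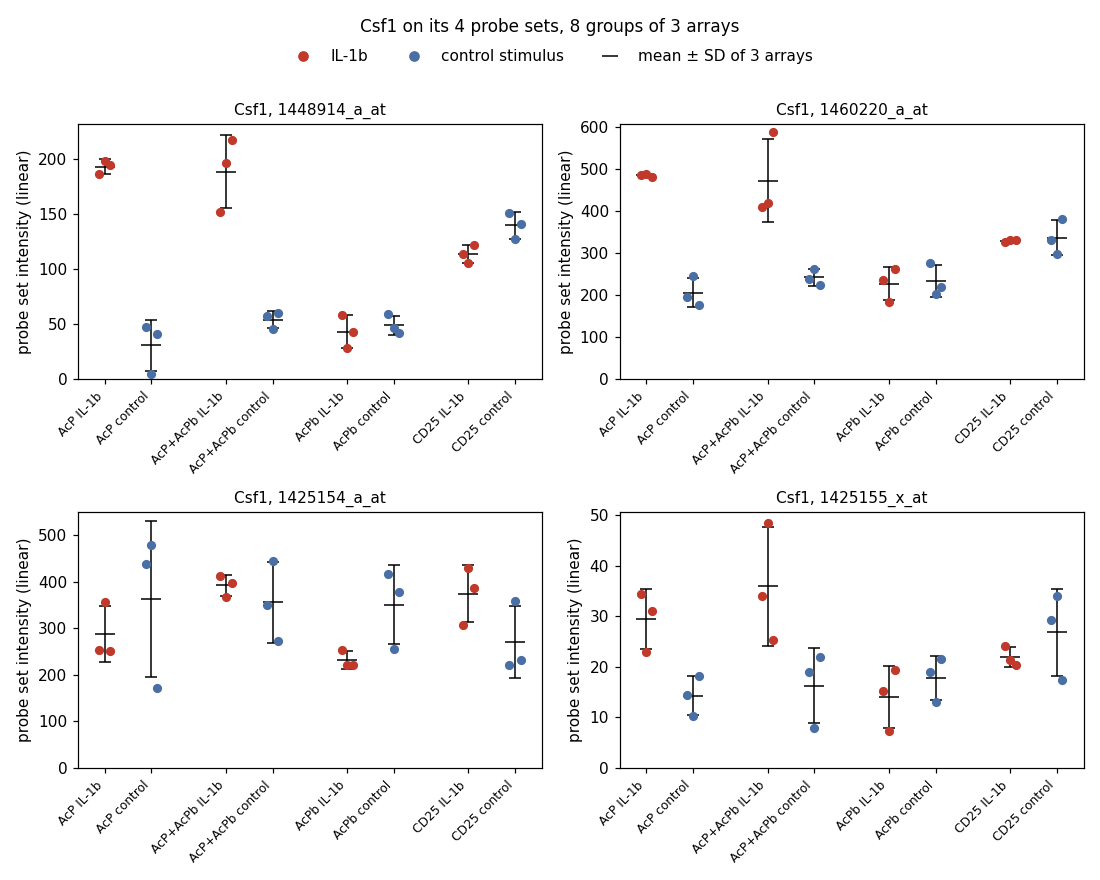
Intensity of the 4 Csf1 probe sets on each array (linear y axis, 1 panel a probe set, each panel with its own range) in the 8 groups, IL-1b in red and control stimulus in blue, with the mean ± SD of 3 arrays. On 1448914_a_at and 1460220_a_at the IL-1b arrays of AcP and AcP+AcPb neurons stand above all other arrays, and 1425154_a_at shows no such order.

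The other Csf1 probe sets were not called in any response. Probe set 1425155_x_at was dim, at 7.4 to 48.4 over the 24 arrays. Its arrays did not overlap in AcP neurons (22.9 to 34.4 with IL-1b, against 10.3 to 18.1 in controls; log2 change 0.58, adjusted p = 0.372) or in AcP+AcPb neurons (25.3 to 48.4, against 7.85 to 21.97; 0.69, adjusted p = 0.226). Probe set 1425154_a_at, the brightest of the gene, had log2 changes of -0.22 in AcP, 0.16 in AcP+AcPb, -0.54 in AcPb and 0.47 in CD25 neurons. The 4 probe sets thus did not report 1 pattern. Probe sets 1425154_a_at and 1425155_x_at share 1 source sequence, which is not that of the called pair. Over the 24 arrays, which share groups and scaling, 1448914_a_at correlated with 1460220_a_at at 0.858 and with 1425155_x_at at 0.78, whereas 1425154_a_at correlated with the other three at -0.0278, 0.0015 and 0.181. Where a gene is read through its brightest probe set alone, Csf1 is not called in any response.

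On 1448914_a_at the AcP change was 1.80 without the low control 2 (adjusted p = 1.25e-05), and both probe sets stayed called with any AcP array left out, but with the AcP arm fitted on its own arrays alone 1448914_a_at was not called (adjusted p = 0.297), and neither probe set was in AcP+AcPb neurons fitted alone (adjusted p = 0.093 and 0.265). The AcP+AcPb response lost both calls without IL-1b replicate 3 (adjusted p = 0.144 and 0.0583), 1448914_a_at also without control 1, control 2 or IL-1b replicate 2 (0.0578 to 0.138), and within the arrays coded m23B, with 1 control, the changes were 1.42 (adjusted p = 0.517) and 1.01 (adjusted p = 0.12).

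The AcP response exceeded the CD25 response by 2.58 ± 0.41 on 1448914_a_at (SE, adjusted p = 0.00452) and by 1.21 on 1460220_a_at (adjusted p = 0.0116). The AcPb response was below the AcP response by a difference of -2.47 (adjusted p = 0.00872) and -1.23 (adjusted p = 0.0129) on the same probe sets. The 2 differences share the AcP arrays, and without CD25 control 3 the excess over CD25 on 1460220_a_at was 1.13 and not called (adjusted p = 0.0515). With only the arrays of the arms compared, the AcPb minus AcP difference was not called on either probe set (adjusted p = 0.206 and 0.094), nor the AcP minus CD25 difference on 1448914_a_at (adjusted p = 0.115). The AcP+AcPb response exceeded the CD25 response by 1.80 and 0.93, which was not called (adjusted p = 0.145 and 0.139). It differed from the AcP response by -0.78 on 1448914_a_at (95% confidence interval -1.63 to 0.07, adjusted p = 0.981) and by -0.28 on 1460220_a_at (adjusted p = 1.0). That interval leaves room for a smaller Csf1 response in AcP+AcPb neurons and for one of about the same size.

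Counted over all members, 2 of 14 probe sets, both of Csf1, were called higher with IL-1b in AcP neurons and none lower, where 0.404% of all probe sets tested were called and 0.302% were called higher. These 2 share 1 source sequence, so a count of 2 here stands for 1 gene and is not 2 independent results. In AcP+AcPb neurons the same 2 were called higher and none lower, where 0.256% of all were called. In AcPb neurons 0 of 14 were called, where 0.00985% of all were. In CD25 neurons 0 of 14 were called, where 0.0% of all were. At an unadjusted p under 0.05 in limma, 5, 4, 0 and 1 of 14 passed in AcP, AcP+AcPb, AcPb and CD25 neurons. Of all 30468 probe sets tested, 2510, 2981, 3073 and 1712 passed there. The difference between the AcP and CD25 responses was called for 2 of 14, both higher, against 0.19% of all, and the difference between the AcPb and AcP responses for 2 of 14, both lower, against 0.148% of all. For AcP+AcPb minus CD25 it was called for 0 of 14, against 0.141% of all, and for AcP+AcPb minus AcP for 0 of 14, against 0.00328% of all. At an unadjusted p under 0.05 in limma, AcP minus CD25 had 4 of 14, against 2589 of 30468 over all. AcP+AcPb minus CD25 had 3 (3079 of all), AcPb minus AcP 4 (2390 of all) and AcP+AcPb minus AcP 1 (1559 of all). The median log2 change of the 14 was 0.133 in AcP, 0.0192 in AcP+AcPb, -0.0103 in AcPb and 0.0116 in CD25 neurons, against -0.00145, 0.0099, -0.00205 and -0.00786 over all probe sets tested.

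**Figure D2:**
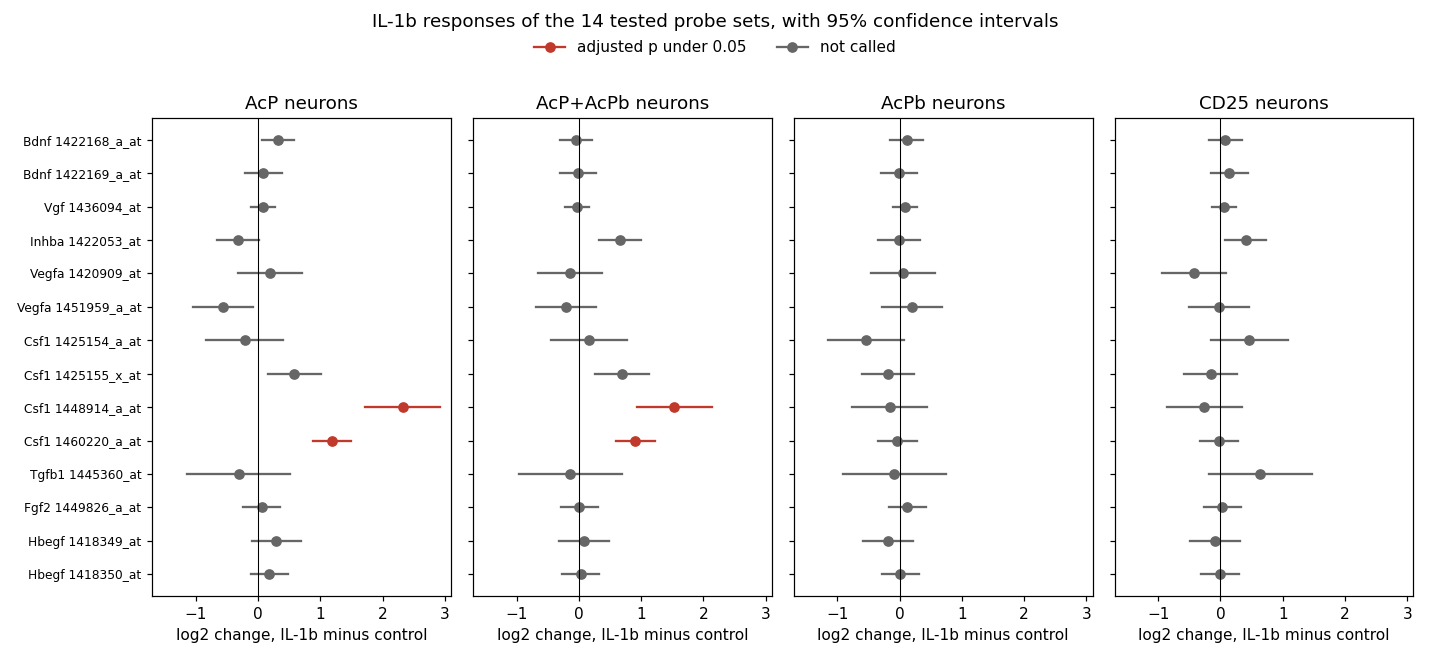
Log2 change with IL-1b (x axis, IL-1b minus control) of the 14 tested probe sets in each of the 4 arms, with points for limma's estimates and bars for 95% confidence intervals, red where called. The 4 red points are Csf1 1448914_a_at and 1460220_a_at in AcP (2.32 and 1.19) and AcP+AcPb neurons (1.53 and 0.91).

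The neurotrophin Bdnf, which supports neuron survival and synaptic plasticity through its receptor Ntrk2, was not called in any response. On 1422168_a_at it read 173.3, 216.2 and 186.2 in AcP neurons with IL-1b, against 149.4, 149.9 and 151.0 in AcP controls. The groups did not overlap, and the change of 0.32 ± 0.12 (SE) had an adjusted p of 0.475. The other Bdnf probe set, 1422169_a_at, overlapped, at 216.2, 254.3 and 245.9 with IL-1b, against 222.4, 251.6 and 199.5 in AcP controls (log2 change 0.09). In the other 3 arms the Bdnf changes ran from -0.04 to 0.14 over both probe sets. The 8 group means of 1422168_a_at were highest in AcP neurons with IL-1b, at 191.9, and lowest in AcPb controls, at 131.6. Of neighbours in that order, only the AcP and CD25 controls had arrays that did not overlap.

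Vgf, a secreted neuropeptide precursor that neurotrophins induce, was bright on every array, at 681.6 to 1187. In AcP neurons it read 869.9, 1031 and 950.8 with IL-1b, against 981.6, 904.9 and 810.4 in controls. In AcP+AcPb neurons it read 821.9, 868.4 and 897.8 with IL-1b, against 873.4, 892.9 and 883.8 in controls. The arrays overlapped in both arms, as they did in AcPb and CD25 neurons. The group means were lowest in AcPb neurons, at 761.8 with IL-1b and 714.3 in controls, and highest in CD25 neurons, at 1043 with IL-1b and 1002 in controls. Of neighbours in that order, only AcPb and AcP+AcPb neurons with IL-1b had arrays that did not overlap. The 4 log2 changes ran from -0.03 to 0.09, and their 95% confidence intervals lay between -0.225 and 0.281, the narrowest among the members.

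Inhba encodes the beta-A subunit of activin A, which neurons induce with activity. On 1422053_at it read 392.3, 451.5 and 392.9 in AcP+AcPb neurons with IL-1b, against 286.2, 237.6 and 242.2 in controls, without overlap. The change of 0.66 ± 0.16 (SE) was not called (adjusted p = 0.114). In AcP neurons the order was opposite, at 313.8, 268.6 and 310.5 with IL-1b, against 420.0, 362.5 and 347.1 in controls, again without overlap (log2 change -0.32, adjusted p = 0.627). The AcP+AcPb response exceeded the AcP response by 0.98 ± 0.22 (SE), with an unadjusted p of 0.000367 and an adjusted p of 0.485 in limma's fit, and was thus not called. AcPb neurons read 351.5, 363.5 and 568.4 with IL-1b, against 461.4, 415.5 and 387.7 in controls. CD25 neurons read 326.9, 454.6 and 488.8 with IL-1b, against 342.7, 294.0 and 299.0 in controls. Groups overlapped in both of these arms, and the CD25 change of 0.41 had an adjusted p of 0.883.

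Vegfa encodes vascular endothelial growth factor A, which drives the growth of blood vessels and acts on neurons as well. On 1451959_a_at it read 91.4, 88.8 and 120.5 in AcP neurons with IL-1b, against 190.2, 151.1 and 126.9 in AcP controls. The stimulated arrays were all lower, and the change of -0.56 ± 0.23 (SE) was not called (adjusted p = 0.506). On the other probe set, 1420909_at, the AcP arrays overlapped, at 161.3 to 213.0 with IL-1b, against 129.1 to 201.5 in controls, and the change was 0.19. The Vegfa probe sets thus had opposite signs in AcP neurons. In AcP+AcPb neurons the changes were -0.20 on 1451959_a_at and -0.14 on 1420909_at, with overlap on both. In AcPb neurons 1451959_a_at read 110.6 to 129.3 with IL-1b, against 100.1 to 107.4 in controls, without overlap (0.20, adjusted p = 0.837), where 21.7% of all probe sets tested did not overlap.

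**Figure D3:**
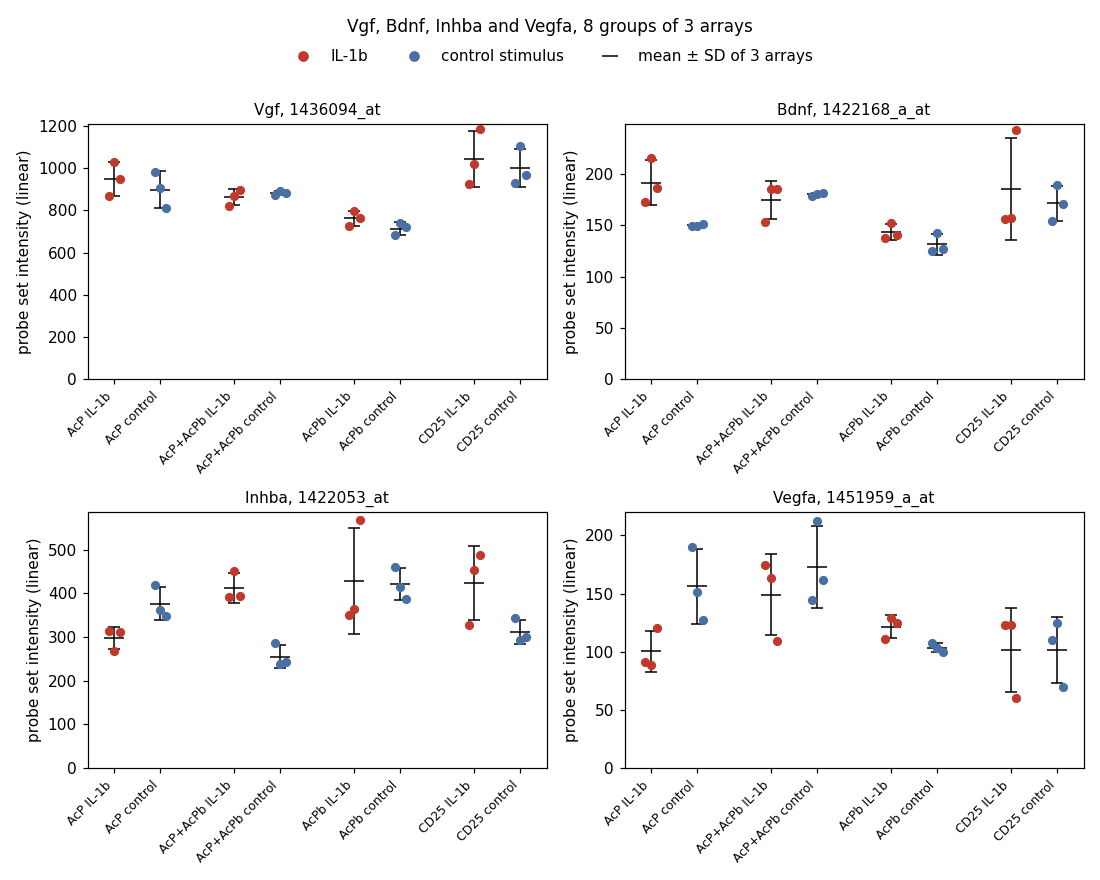
Intensity on each array (linear y axis, each panel with its own range) of Vgf 1436094_at, Bdnf 1422168_a_at, Inhba 1422053_at and Vegfa 1451959_a_at in the 8 groups, IL-1b in red and control stimulus in blue, with the mean ± SD of 3 arrays. Each gene is shown on its tested probe set with the largest AcP change in either direction. The probe sets not shown, Bdnf 1422169_a_at and Vegfa 1420909_at, had AcP changes of 0.09 and 0.19. Inhba lies higher with IL-1b in AcP+AcPb neurons (392.3 to 451.5, against 237.6 to 286.2) and lower in AcP neurons (268.6 to 313.8, against 347.1 to 420.0), and no change with IL-1b in the 4 panels was called.

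Hbegf, a membrane-bound ligand of the EGF receptor that is shed from the cell surface, was read by both of its probe sets on every array. On 1418350_at it read 461.1, 538.8 and 485.6 in AcP neurons with IL-1b, against 486.6, 379.6 and 443.7 in controls, with overlap (log2 change 0.18, adjusted p = 0.815). On 1418349_at the AcP change was 0.30 (adjusted p = 0.743), also with overlap. In the other 3 arms the Hbegf changes ran from -0.19 to 0.08 and the arrays overlapped throughout.

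Fgf2, a mitogen of neural progenitors, was near the dim end. The tested probe set of Tgfb1, an immune-modulating cytokine, was above the median of its array on 16 of 24 arrays. Tgfb1 1445360_at read 57.5 to 77.9 in AcP neurons with IL-1b, against 70.3 to 96.2 in controls (log2 change -0.31, adjusted p = 0.911). Its change of 0.64 in CD25 neurons had a 95% confidence interval from -0.19 to 1.47. Fgf2 1449826_a_at lay between 17.7 and 42.0 and was above its array's 40th percentile on 6 of 24 arrays. It read 30.6 to 40.6 in AcP neurons with IL-1b, against 28.6 to 42.0 in controls, and its 4 changes ran from 0.01 to 0.12.

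Without IL-1b the arms themselves differed for Csf1 and Vgf. On Csf1 1448914_a_at the AcP, AcP+AcPb and AcPb controls read 4.57 to 47.4, 45.1 to 59.8 and 41.9 to 58.8, against 126.9 to 150.7 in CD25 controls. All control arrays of the other arms were below all CD25 controls, where 24.2%, 38.8% and 29.2% of all probe sets tested had no overlap in the 3 comparisons, with log2 differences of -1.89 (adjusted p = 0.000255), -1.15 (adjusted p = 0.0119) and -1.26 (adjusted p = 0.0145). On 1460220_a_at the differences were -0.68 (adjusted p = 0.00596) and -0.45 (adjusted p = 0.0495) for AcP and AcP+AcPb neurons, and -0.51 for AcPb neurons, which was not called (adjusted p = 0.0584). The 3 comparisons share the CD25 controls. The AcP+AcPb difference on 1460220_a_at lost its call without any 1 of the 6 control arrays compared (adjusted p = 0.0506 to 0.182), that on 1448914_a_at without AcP+AcPb control 2 (0.0575), and the AcPb difference on 1448914_a_at without AcPb control 3 (0.0638) or CD25 control 1 (0.0538). Both AcP+AcPb differences ended as calls with the array code as a term (adjusted p = 0.226 on 1448914_a_at and 0.197 on 1460220_a_at) and with only the m23B arrays of that arm (0.239 and 0.209), and code and arm cannot be told apart here. With IL-1b the AcP and AcP+AcPb arrays of both probe sets stood above those of the CD25 controls, at means of 192.9 and 188.0 on 1448914_a_at, against 139.5.

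Vgf read 681.6, 738.5 and 722.9 in AcPb controls, against 931.6, 1105 and 967.9 in CD25 controls, a difference of -0.48 ± 0.09 (SE, adjusted p = 0.00395). Vgf differences of -0.15 in AcP and -0.17 in AcP+AcPb controls were not called (adjusted p = 0.311 and 0.206). Vegfa 1451959_a_at read 144.1, 212.1 and 161.4 in AcP+AcPb controls, against 109.7, 124.6 and 69.8 in CD25 controls. These arrays did not overlap, as for 38.8% of all probe sets tested in that comparison, and the difference of 0.70 was not called (adjusted p = 0.0501). On the brighter Vegfa probe set, 1420909_at, the arrays overlapped (0.26, adjusted p = 0.49). Array code and arm cannot be told apart in this comparison.

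Members called between unstimulated arms were 2 of 14, both lower, in AcP controls, where 10.3% of all probe sets tested were called and 6.13% were called lower. They were 2 of 14, both lower, in AcP+AcPb controls, where 14.3% of all were called, 8.92% lower, and 2 of 14, both lower, in AcPb controls, where 4.59% of all were called, 3.42% lower. The called pair was Csf1 1448914_a_at and 1460220_a_at in AcP and in AcP+AcPb controls among these comparisons and Csf1 1448914_a_at and Vgf in AcPb controls. In AcP and AcP+AcPb controls a count of 2 of 14 is near the share over all probe sets, and is no result about the members. Markers of other cells differed alongside. The 8 fibroblast and mural markers summed to 1111 to 1310 in AcP, 1195 to 1528 in AcP+AcPb and 1341 to 1564 in AcPb controls, against 2100 to 2790 in CD25 controls, with 3, 4 and 2 of 8 called lower and none higher. Most of that gap was Acta2, a smooth muscle actin, at means of 634.9, 826.7 and 837.8, against 1741 in CD25 controls, whereas Dcn, a matrix proteoglycan, averaged 161.2 in AcP controls, against 113.3 in CD25 controls, and was not called. The 6 measured progenitor and division markers summed to 2730 to 2968, 2464 to 2738 and 3113 to 3273 in the same arms, against 4077 to 4362 in CD25 controls, with 3, 4 and 2 called lower and none higher. Of 8 astrocyte markers, Slc1a2, S100b and Aldoc were called higher and Gfap, Aqp4 and Aldh1l1 lower in AcP controls, Slc1a2 and S100b higher and Aldh1l1 lower in AcP+AcPb controls, and Gfap and Aldh1l1 lower in AcPb controls. Their sums were 18293 to 20266, 19710 to 21589 and 18409 to 20504 in these arms, against 15529 to 21385 in CD25 controls. Of 6 oligodendrocyte lineage markers tested, Olig1 was called higher in AcP and AcPb controls and Mbp lower in AcP+AcPb controls. No neuron, microglia or endothelial marker was called. On this basis of 1 probe set a gene, 15.5%, 18.7% and 7.62% of all genes tested were called in the 3 comparisons. The part of these markers in the Csf1 and Vgf differences was not tested.

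The responses to IL-1b were not accompanied by called changes in markers of microglia, the cells on which Csf1 acts in brain. Of 10 microglia and macrophage markers, 9 had a probe set and 4 were tested, and 0 were called in any response. Of all genes tested through 1 probe set each, 0.542%, 0.457%, 0.00703% and 0.0% were called in AcP, AcP+AcPb, AcPb and CD25 neurons. With 4 genes tested, 0 calls is near these shares and is no result about microglia. Markers of the list differed in level. Aif1 and C1qa had means at or below 0 in all 8 groups, and Cx3cr1 averaged -5.87 to 3.66. C1qb averaged 61.4 to 82.4 and Cd68 39.4 to 56.0 over the groups. Summed over the list, microglia markers gave 509.7 to 770.6 in AcP neurons with IL-1b, against 454.4 to 780.1 in AcP controls. In AcP+AcPb neurons they gave 483.0 to 603.9 with IL-1b, against 374.6 to 490.7 in controls. Most of these sums was Csf1r, which averaged 426.1 in AcP neurons with IL-1b, against 414.3 in AcP controls, and 377.5 in AcP+AcPb neurons with IL-1b, against 277.4 in their controls.

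Genes that work with the members were counted through the brightest probe set of each gene, over 14217 genes tested. Of 30 related ligands, such as other neurotrophins, colony-stimulating factors and members of the same families, 21 were tested, and of 24 receptors and 24 inhibitors, binding and processing proteins, 21 and 22 were. None of these was called in any response or response difference. Of all genes tested on this basis, the responses were called for 0.542%, 0.457%, 0.00703% and 0.0% of genes in AcP, AcP+AcPb, AcPb and CD25 neurons, and the differences for 0.246%, 0.19%, 0.26% and 0.00703% of genes in AcP minus CD25, AcP+AcPb minus CD25, AcPb minus AcP and AcP+AcPb minus AcP. Csf1r, the receptor of Csf1, averaged 426.1 in AcP neurons with IL-1b, against 414.3 in AcP controls. Its mean of 377.5 in AcP+AcPb neurons with IL-1b, against 277.4 in controls, was the largest upward change among the receptors in that response (log2 change 0.431) and was not called. Ntrk2, the receptor of Bdnf, averaged 3510 in AcP neurons with IL-1b, against 3460 in AcP controls. These receptors were named for their tie to the members, after their values had been seen. Median log2 changes with IL-1b in AcP neurons were -0.083 for related ligands, 0.022 for receptors and 0.039 for inhibitors and processing proteins, against 0.0033 over all genes tested.

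Of 26 genes known as targets of growth factor or cytokine signals, 23 were tested. In AcP neurons 3 were called higher and none lower, in AcP+AcPb neurons 2 higher and none lower, and in AcPb and CD25 neurons none, where 0.542% of all genes tested were called in AcP and 0.457% in AcP+AcPb neurons. Ier3, an early response gene linked to cell survival, averaged 306.7 ± 97.5 in AcP neurons with IL-1b, against 49.6 ± 5.99 in AcP controls (SD, n = 3 arrays each), a log2 change of 2.26 (adjusted p = 4.56e-07). It rose by 1.58 in AcP+AcPb neurons (adjusted p = 7.91e-05). Egr2, a zinc finger transcription factor, read 329.6, 426.7 and 324.7 in AcP neurons with IL-1b, against 51.6, 58.2 and 88.0 in controls. Its log2 changes were 2.21 in AcP (adjusted p = 1.82e-06) and 2.06 in AcP+AcPb neurons (adjusted p = 8.39e-06). In AcP+AcPb neurons, controls 1 and 2 were coded m22B and the IL-1b arrays m23B. The part of the array code in the Ier3 and Egr2 changes of that arm is not reported here.

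Fos, a subunit of AP-1, read 690.5, 897.6 and 631.9 in AcP neurons with IL-1b, against 214.5, 321.0 and 294.9 in AcP controls (log2 change 1.37, adjusted p = 0.000151). In AcP+AcPb neurons the Fos change of 0.54 was not called (adjusted p = 0.263), although its 3 stimulated arrays (687.1 to 717.9) were above its 3 controls (363.6 to 576.6). The AcPb change of Egr2, 101.4 with IL-1b against 49.9 in controls, was 0.83 and not called (adjusted p = 0.214). The difference between the AcPb and AcP responses was called for Ier3 (-2.03, adjusted p = 0.000315) and Fos (-1.33, adjusted p = 0.0209) and was not called for Egr2 (-1.38, adjusted p = 0.0596). Without IL-1b, Fos averaged 772.8 in CD25 controls, against 740 in AcP neurons with IL-1b. AcP controls were below CD25 controls for Fos (-1.44, adjusted p = 1.7e-05) and Ier3 (-1.22, adjusted p = 0.000167), and Egr2 was not called (adjusted p = 0.156). Of the 23 targets tested, 7 were called lower and 0 higher in that comparison, where 15.5% of all genes tested were called.

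The genes most like Csf1 were taken as the 3 with the highest Pearson correlation over the 24 arrays with each called probe set. The arrays share groups and scaling, so the coefficients are descriptions. With 1448914_a_at these were Irgm1 (0.935), an interferon-induced GTPase, Icam1 (0.934), an adhesion molecule for leukocytes, and Gbp7 (0.919), a guanylate-binding protein. With 1460220_a_at they were Gbp2 (0.949), another guanylate-binding protein, H2-K1 (0.941), a classical MHC class I chain, and Tnfaip2 (0.94), a TNF-induced gene. Icam1 averaged 273.8 in AcP neurons with IL-1b, against 12.5 in AcP controls, and 170.4 in CD25 neurons with IL-1b, against 205.8 in CD25 controls. Irgm1 averaged 232.8 in AcP neurons with IL-1b, against 87.3 in AcP controls, and 214.7 in CD25 neurons with IL-1b, against 216.0 in CD25 controls. As for Csf1, the mean of both genes was lower in AcP controls than in CD25 controls. Both genes were chosen by correlation with Csf1 over these same arrays, so this likeness is no separate result. Tnfaip2 averaged 693.0 in AcP neurons with IL-1b, against 8.85 in AcP controls, and 677.3 in AcP+AcPb neurons with IL-1b, against 18.1 in their controls.

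**Figure D4:**
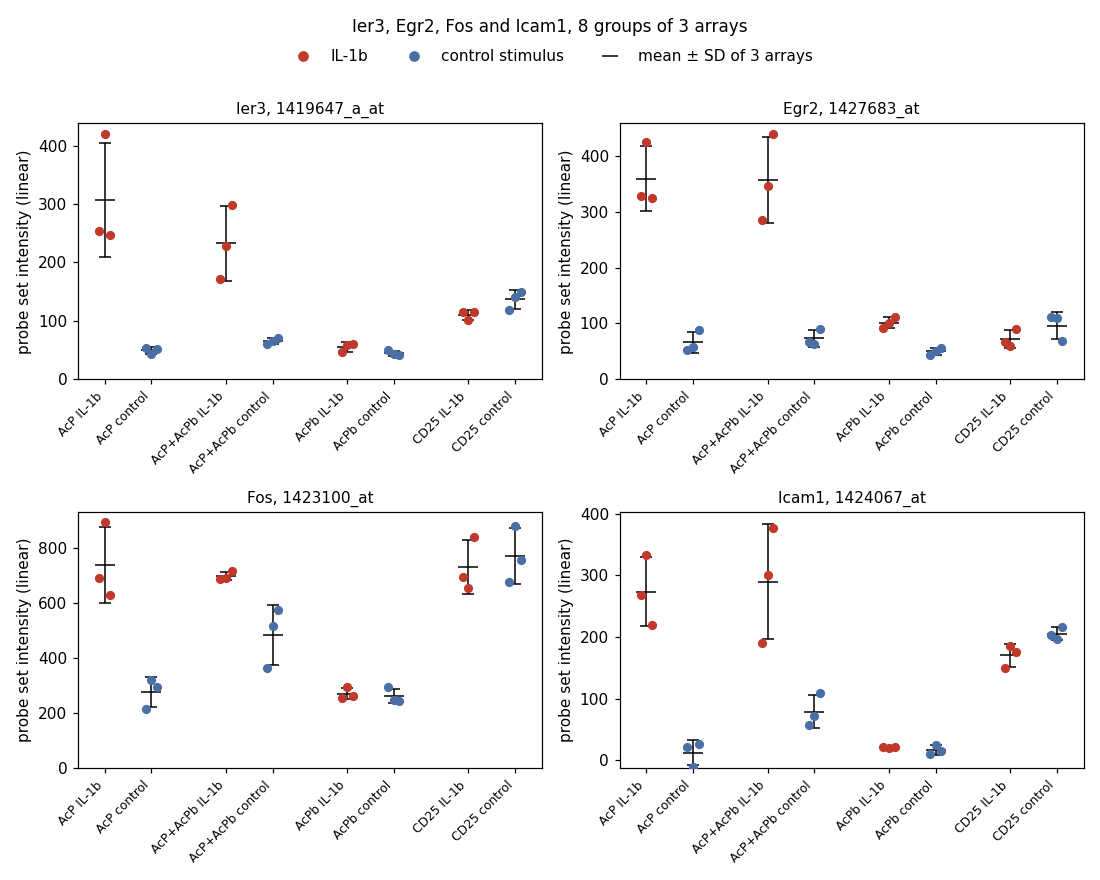
Intensity on each array (linear y axis, each panel with its own range) of the signal-induced genes Ier3, Egr2 and Fos and of Icam1, one of the genes most like Csf1, in the 8 groups, IL-1b in red and control stimulus in blue, with the mean ± SD of 3 arrays. In AcP neurons all 4 genes are higher with IL-1b than in controls on every array, and in AcPb neurons Ier3, Fos and Icam1 stay near their control levels.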

How the data were processed

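The authors deposited 1 linear intensity per probe set for each of 24 one-colour Affymetrix arrays. Per the labels' protocols, RNA came from RNeasy columns and carried biotin through Eberwine labelling. Summarisation and scaling are not stated (not given in the sources used here). On an array, 16.4% to 18.2% of values were below 0, and precision is limited by how many arrays there are.

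Groups were taken from the labels. The platform table gave 34945 probe sets 1 symbol, 932 several and 9160 none, and all 16 Entrez IDs of the members' probe sets had the same symbol in RefSeq. Negative values were set to 0, 16 was added and log2 taken. limma 3.58.1 (lmFit and eBayes, R 4.3.3) was fitted to 30468 probe sets on all 24 arrays with 8 group means, with 16 residual and 1.94 prior degrees of freedom. P-values are two-sided and adjusted by Benjamini-Hochberg within each of 11 comparisons. The fit was tested on simulated data. Whether the 3 arrays of a group stem from different cultures or animals is not labelled, so the p-values reflect the spread of these samples alone, possibly technical.

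Deviations of same-numbered arrays from their group means correlated at -0.121 to 0.194, over 0.1 in 2 of 12 cases. By arm they ran from -0.0945 to -0.0439 in AcP, -0.121 to 0.0176 in AcP+AcPb, 0.0173 to 0.106 in AcPb and 0.0645 to 0.194 in CD25 neurons. These values give no clear sign that replicate numbers pair the arrays, and with 3 arrays a group they cannot exclude it. No array pair held identical values. The members, gene lists, motifs and tests were chosen with earlier results of these data known. All member probe sets were described. Named from other lists were at most 4 genes a list called in a response or response difference, by size of the AcP change, and the 3 genes most correlated with each called member probe set. Alternatives covered normalization, added constant, dim filter, probe set choice, array weights, array code, replicate block, fits on single arms and arrays left out.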

Additional observations from a re-analysis of the deposited data

Results flagged for a closer look

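Csf1 is listed because its response to IL-1b differed between arms by a test of the difference itself. The AcP response was above the CD25 response by 2.58 log2 units on 1448914_a_at (limma, adjusted p = 0.00452) and by 1.21 on 1460220_a_at (adjusted p = 0.0116). The AcPb response differed from the AcP response by -2.47 on 1448914_a_at (adjusted p = 0.00872) and by -1.23 on 1460220_a_at (adjusted p = 0.0129). With only the arrays of the arms compared, the AcPb minus AcP calls ended on both probe sets (adjusted p = 0.206 and 0.094), as did the AcP minus CD25 call on 1448914_a_at (0.115), and that on 1460220_a_at ended without CD25 control 3 (0.0515). These differences share the AcP arrays, and AcP control 2, at 4.57 on 1448914_a_at, was the lowest of all 24 arrays there.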

How the results depend on the processing

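Among the 14 called member results, no change of direction occurred over 257 combinations of a result and an alternative setting, of which 38 ended a call. None of the 52 uncalled pairs of a member probe set and a response was called in 867 such combinations. The setting with the brightest probe set of each gene leaves out the called Csf1 probe sets and is not counted for them. With the brightest probe set of each gene, 0 members were called in the AcP and AcP+AcPb responses, in the AcP minus CD25 and AcPb minus AcP response differences and in unstimulated AcP and AcP+AcPb minus CD25, and 1 in unstimulated AcPb minus CD25, because Csf1 is then read through 1425154_a_at. With only the arrays of the arms compared, the counts were 1 for the AcP response, 0 for AcP+AcPb, 1 each for AcP minus CD25 and AcP+AcPb minus CD25, 0 for AcPb minus AcP and 1 for unstimulated AcP+AcPb minus CD25, with fewer arrays to estimate the spread. With the replicate number as a block, the counts were 0 for AcP+AcPb, 1 for AcP minus CD25 and 0 for AcPb minus AcP. In 4 of 12 cases an array correlated best with that of its own number, which gives no clear sign of pairing and does not exclude it. With the array code as a term, or only its m23B arrays, they were 0 for the AcP+AcPb response and 0 for unstimulated AcP+AcPb minus CD25. Other counts were 1 for AcP+AcPb minus CD25 with 64 added or with array weights, 4 for unstimulated AcPb minus CD25 with array weights, and 1 for unstimulated AcP+AcPb minus CD25 with no dim filter. Over the alternatives that left no single array out, the unstimulated AcP+AcPb minus CD25 count ran from 0 to 3, against 2 in the fit described above. Calls were thus gained as well as lost in that comparison. With each array left out in turn, counts stayed at 2 to 2 for AcP and for AcPb minus AcP, and ran from 0 to 2 for AcP+AcPb (0 without IL-1b 3, 1 without control 1, control 2 or IL-1b 2), 1 to 2 for AcP minus CD25 (1 without CD25 control 3) and 2 to 3 for unstimulated AcP. They ran from 0 to 2 for unstimulated AcP+AcPb (0 without that arm's control 2, and 1 without its control 1 or 3 or CD25 control 1 or 3) and 1 to 3 for unstimulated AcPb (1 without AcPb control 3 or CD25 control 1). The causes of these moves were not tested beyond the smaller numbers of arrays or probe sets named. Dim probe sets such as Fgf2 1449826_a_at and Csf1 1425155_x_at limit what can be seen of small changes.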
